A study of Mus with 6 samples.

Results

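The genes described here are 10 chemokine ligands, Ccl2, Ccl3, Ccl4, Ccl6, Ccl9, Ccl12, Cxcl10, Cxcl12, Cxcl16 and Cx3cl1, chosen by gene symbol from the 18887 genes of the deposited table. All 10 were present as rows and all 10 passed the filter on low values. They were followed in 4 libraries labelled IRKO, with the genotype KO, and in 2 control libraries, with the genotype Ctr. Every library is a RiboTag precipitate of ribosome-bound RNA from whole mouse brain, in which a tagged ribosomal protein marks the ribosomes of a chosen cell type, here given by the labels as microglia. The study's title speaks of insulin signalling in microglia, so IRKO is taken to mean an insulin receptor knockout. The sources used here do not give the allele, the driver of the tag and of the knockout, or the age, sex and strain of the animals. Nor do they say whether each replicate is a different animal, and the p-values therefore cover the spread between these libraries, which may be technical. The comparison asks how the transcripts on ribosomes differ between the libraries labelled KO and Ctr, and neuroinflammation is named in the study's title. Whether insulin signalling in microglia was lost was not tested here.

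Chemokines are small secreted proteins that draw cells along a gradient through receptors of the G protein-coupled class. They are grouped by the spacing of conserved cysteines into CC, CXC and CX3C types, which gives the symbols Ccl, Cxcl and Cx3cl. In the brain, Cx3cl1 (fractalkine) is made mainly by neurons and acts on Cx3cr1 of microglia, Cxcl12 is made by vascular, meningeal and some neural cells, and several CC ligands are made by microglia and macrophages.

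The libraries held 13858978 to 14568773 reads in IRKO, against 16883098 and 19010680 in the controls. Insr, the insulin receptor gene, had normalized counts of 357, 366, 291 and 340 in IRKO replicates 1 to 4, against 565 and 531 in control replicates 1 and 2, a log2 change of −0.70 ± 0.135 (SE, limma adjusted p = 0.00211). Microglial genes were read in every library: P2ry12, a purinergic receptor of microglia, stood at 2235 to 3696 in IRKO and at 802 and 849 in the controls. The controls also held more astrocyte and blood RNA. The summed normalized count of 20 astrocyte markers was 51080 to 81630 in IRKO, against 849200 and 664900 in control replicates 1 and 2. Red blood cell genes summed to 244.5 to 2140 in IRKO, against 75540 and 161700 in control replicates 1 and 2. The sums of 12 liver genes were 8742 to 19560 in IRKO, against 8197 and 83910. Most of those sums came from Trf, also an oligodendrocyte gene, and Ttr, also on the choroid plexus list. Trf stood at 7504 to 9063 in IRKO, against 3758 and 3982, and Ttr at 657.7 to 11970, against 3549 and 66780. Alb stood at 2.97 to 13.6 in IRKO, against 360 and 5125, so both controls were higher for it, control replicate 2 the more so. Of 14698 genes tested, 55.6% differed at a limma adjusted p under 0.05. In bulk RNA of this kind, fewer cells of a type and less RNA per cell cannot be told apart.

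As deposited, 8 of the 10 chemokine ligands rose in IRKO and none fell, where 26.6% of all genes tested rose and 29.0% fell. The median log2 change of the 10 genes was 1.10, beside 0.02 for all genes tested. Their changes ran from −0.26 for Cxcl10 to 1.56 for Ccl12. In 7 of the 10 genes every IRKO library lay above both controls, an arrangement found in 32.8% of all genes tested. In none of the 10 did every IRKO library lie below both controls, as was so in 34.8% of all genes tested. The 8 genes that rose were Ccl2, Ccl4, Ccl6, Ccl9, Ccl12, Cxcl12, Cxcl16 and Cx3cl1, while Ccl3 and Cxcl10 did not pass the test. Fold changes below are on the scale of log2(normalized count + 1), which understates the change of low genes.

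**Figure D1:**
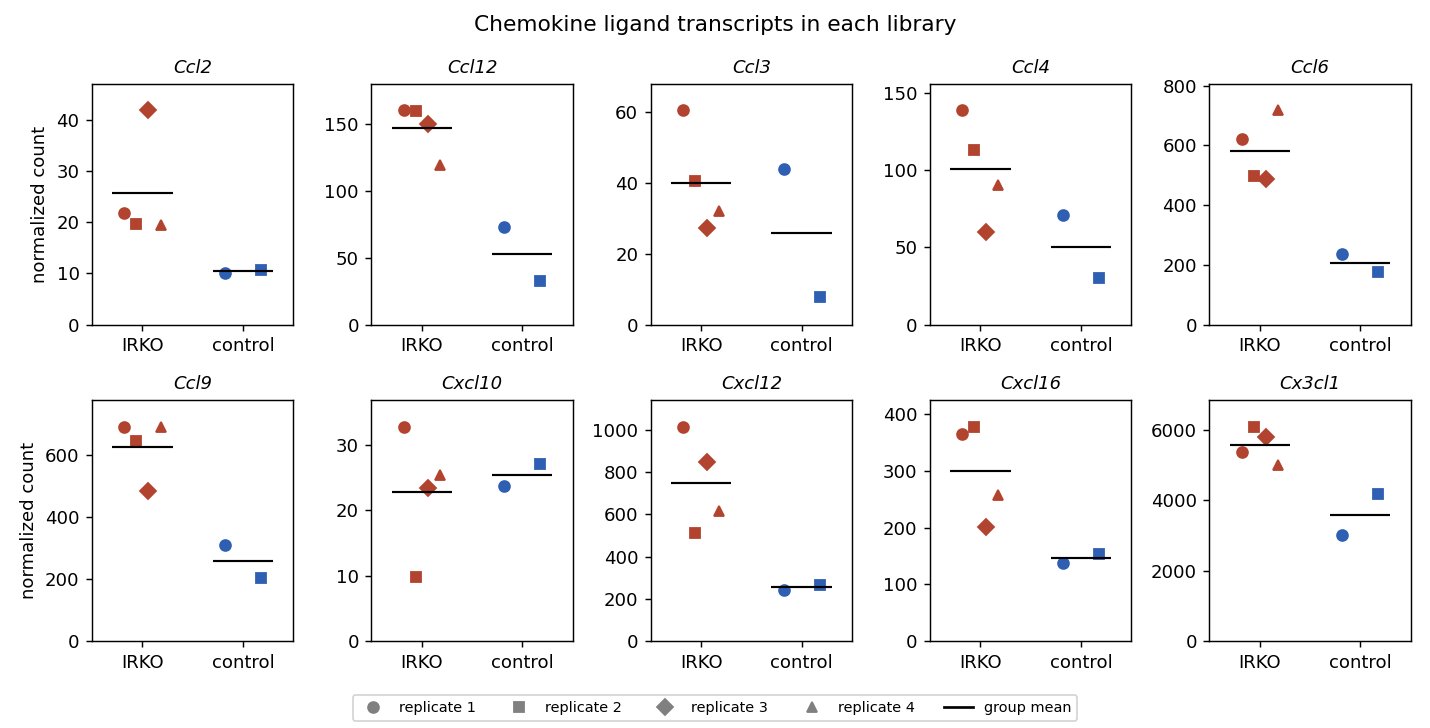
Normalized counts of the 10 chemokine ligands (vertical axes from 0, 1 panel per gene) in the 4 IRKO libraries (red, left) and the 2 control libraries (blue, right), with symbols for replicate numbers and a bar at each group mean. The groups overlap for Ccl3, Ccl4 and Cxcl10 and are apart for the other 7 genes.

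Ccl2 and Ccl12 both act on Ccr2, the receptor that brings monocytes into tissue, and Ccl12 is a mouse gene close to Ccl2. They lie near each other on chromosome 11 of GRCm38.p6, Ccl2 from 82035577 to 82037452 and Ccl12 from 82101845 to 82103399. Ccl2 had normalized counts of 21.8, 19.7, 41.8 and 19.5 in IRKO replicates 1 to 4, against 10.1 and 10.7 in the controls. Every IRKO library lay above both controls, and IRKO replicate 3 stood apart from the other 3. The log2 change was 1.16 ± 0.412 (SE, 95% interval 0.23 to 2.08, limma adjusted p = 0.0384). Its values rest on 20 to 43 reads per IRKO library and on 9 and 11 reads in the controls, and the call was lost when any of IRKO replicates 1 and 3 and control replicates 1 and 2 was left out (limma adjusted p 0.0562 to 0.128).

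Ccl12 rose 2.94-fold. It had 160, 160, 151 and 120 normalized counts in IRKO replicates 1 to 4, against 73.1 and 32.9 in control replicates 1 and 2. The lowest IRKO library was thus above the higher control, and the controls differed between themselves by a ratio of 2.22. The log2 change was 1.56 ± 0.298 (SE, limma adjusted p = 0.00200), and it passed the test with each library left out in turn (0.99 to 2.12).

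Ccl3 and Ccl4 (macrophage inflammatory proteins 1 alpha and 1 beta) are CC chemokines that are rapidly induced in activated microglia, and Ccl3 acts on Ccr1. Ccl3 had normalized counts of 60.4, 40.4, 27.2 and 32.1 in IRKO, against 43.9 and 7.75 in control replicates 1 and 2. Control replicate 1 fell inside the IRKO range, and the log2 change of 0.99 ± 0.597 (SE, 95% interval −0.36 to 2.33) did not pass (limma adjusted p = 0.186). Leaving out control replicate 2 gave −0.19 (limma adjusted p = 0.750), and leaving out control replicate 1 gave 2.17 (limma adjusted p = 0.00848).

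Ccl4 had 139, 113, 60.2 and 90.6 normalized counts in IRKO replicates 1 to 4, against 70.9 and 30.0 in control replicates 1 and 2. IRKO replicate 3 was below control replicate 1, so the groups overlapped. The log2 change of 1.04 ± 0.398 (SE) passed narrowly with limma (adjusted p = 0.0493) and not with edgeR (adjusted p = 0.0677). Without control replicate 2 it was 0.44 (limma adjusted p = 0.412), and without control replicate 1 it was 1.65. The call was also lost without IRKO replicate 1, 2 or 4 (limma adjusted p = 0.0957, 0.0994 and 0.0821). Ccl3 and Ccl4 shared their order of libraries at both ends: IRKO replicate 1 was highest, IRKO replicate 3 lowest within IRKO, and control replicate 2 lowest of all. Ccl9, whose span overlaps no other annotated gene, had the same order at both ends. The annotated spans of Ccl3 (83647843 to 83649378) and Ccl4 (83648624 to 83664683) overlap on chromosome 11. Without stated strandedness, reads in their shared stretch cannot be assigned to either.

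Ccl6 and Ccl9 are CC chemokines of rodents that act on Ccr1 and are made by myeloid cells. They are neighbours on chromosome 11, Ccl9 from 83572917 to 83578636 and Ccl6 from 83587886 to 83593087, 9.25 kb apart. The span of Ccl6 overlaps that of E230016K23Rik. Ccl6 had normalized counts of 620, 497, 488 and 717 in IRKO, against 235 and 175 in the controls. The lowest IRKO value was above the higher control value, and the gene rose 2.81-fold (log2 1.49 ± 0.193, SE, limma adjusted p = 0.000216). Ccl9 had 691, 645, 484 and 691 in IRKO, against 312 and 203 in the controls. Here too the groups were apart, with a rise of 2.46-fold (log2 1.30 ± 0.205, SE, limma adjusted p = 0.000678). Both passed the test with each library left out in turn, at 1.28 to 1.70 for Ccl6 and 0.99 to 1.61 for Ccl9.

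Cxcl10, an interferon-induced chemokine that draws T cells through Cxcr3, was the member that lay lowest relative to the controls. Its normalized counts were 32.7, 9.86, 23.3 and 25.3 in IRKO replicates 1 to 4, against 23.6 and 27.1 in the controls. The IRKO libraries spread over a ratio of 3.32 and held both the highest and the lowest value of the 6. The log2 change of −0.26 ± 0.463 (SE) did not pass (limma adjusted p = 0.657), and its 95% interval from −1.30 to 0.79 leaves room for a change in either direction. Cxcl10 lies on chromosome 5 from 92346638 to 92348889 within the span of Art3, whose reads may overlap with it.

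Cxcl12 (stromal cell-derived factor) acts on Cxcr4 and is bound by the atypical receptor Ackr3. It lies on chromosome 6 from 117168535 to 117181368. Its normalized counts were 1013, 513, 845 and 616 in IRKO replicates 1 to 4, against 242 and 267 in the controls. All IRKO libraries were above both controls, though they differed among themselves by a ratio of 1.98. The rise was 2.83-fold (log2 1.50 ± 0.246, SE, limma adjusted p = 0.000833).

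Cxcl16 and Cx3cl1 are the chemokines of the family that are made as transmembrane proteins and can be shed by metalloproteases. Cxcl16, a ligand of Cxcr6 that also binds oxidized lipoprotein, lies on chromosome 11 from 70454389 to 70459984 and overlaps the span of Zmynd15. It had 365, 378, 201 and 258 normalized counts in IRKO, against 138 and 154 in the controls. No IRKO library reached down to the controls, and the rise was 1.99-fold (log2 0.99 ± 0.251, SE, limma adjusted p = 0.00863). With control replicate 1 left out the change was 0.91 and did not pass (limma adjusted p = 0.0539).

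Cx3cl1 lies on chromosome 8 from 94772180 to 94782427 and overlaps the span of Gm51543. It had normalized counts of 5387, 6084, 5797 and 5009 in IRKO, against 3017 and 4175 in control replicates 1 and 2. The groups were apart, and the ratio of the highest to the lowest IRKO library, 1.21, was the smallest of the 10 genes. Cx3cl1 rose 1.56-fold (log2 0.65 ± 0.153, SE, limma adjusted p = 0.00608). Without control replicate 1 the change was 0.41 (limma adjusted p = 0.0876).

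Within IRKO the libraries did not rank alike. IRKO replicate 1 held the highest value of 6 of the 10 ligands, and IRKO replicate 3 the lowest of 5 and the highest of Ccl2.

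The markers of cell types that express these ligands moved between the same libraries, where 26.6% of all genes tested rose and 29.0% fell. Of 36 homeostatic microglia genes, 33 rose, none fell and 3 did not pass, with a median log2 change of 1.52. Their summed normalized count was 542900 to 716600 in IRKO, against 492300 and 478100 in the controls. Cst3, a protease inhibitor that astrocytes also express, made up 32.5% to 36.9% of that sum in IRKO and 60.0% and 69.0% in the controls. Without it the sum was 342700 to 466800 in IRKO, against 196900 and 148200 in the controls. Ccl6 (1.49), Ccl12 (1.56) and Cxcl12 (1.50) lay near that list's median. The other ligands lay below it: Ccl9 (1.30), Ccl2 (1.16), Ccl4 (1.04), Ccl3 (0.99), Cxcl16 (0.99), Cx3cl1 (0.65) and Cxcl10 (−0.26).

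Of 20 neuron markers 17 rose and none fell (median 0.98), with summed counts of 120300 to 174900 in IRKO and of 67310 and 81570 in the controls. Of 21 endothelial and mural markers 11 rose and 3 fell (median 0.76), with sums of 5539 to 14900 in IRKO and of 6546 and 6164 in the controls. Of 19 border macrophage and monocyte markers 13 were tested, of which 5 rose and 1 fell (median 0.32), with sums of 2689 to 4477 in IRKO and of 1739 and 1280 in the controls. All 20 astrocyte markers fell, with a median of −4.20. Of 16 oligodendrocyte lineage markers 9 rose and 3 fell (median 0.81), and of 10 choroid plexus and ependyma markers none rose and 6 fell (−2.13). Of 12 neutrophil markers 7 were tested, of which 2 rose, Cxcr2 among them, and 3 fell (−1.28), and of 4 lymphocyte markers tested 1 rose (0.29). All 6 red blood cell genes tested fell (−7.01), as did 10 of 12 liver genes (−7.03), where Trf, also an oligodendrocyte gene, rose. With control replicate 2 left out, the medians were −1.57 for liver, −1.36 for choroid plexus and ependyma and −0.25 for border macrophages and monocytes. With control replicate 1 left out, they were 0.92 for border macrophages and monocytes and −0.05 for neutrophils. The filter was applied anew in each of these fits, so genes left the lists and these medians are not comparable with those above. Without control replicate 2, liver genes such as Serpina3k (0 in each IRKO library, 81.0 in control replicate 1) were no longer tested. No marker in these lists was at 0 in all 6 libraries. The part of these shifts in the differences of the ligands was not tested.

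**Figure D2:**
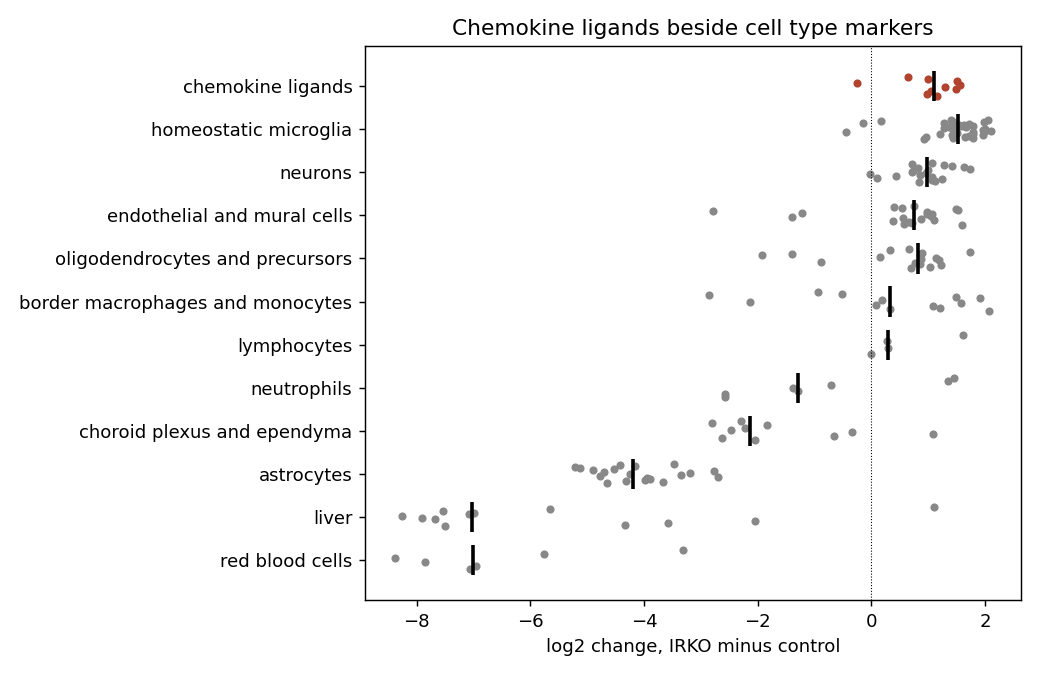
Log2 change, IRKO minus control (horizontal axis), of each tested gene (points) in the chemokine ligand set (red) and in 11 marker lists (grey), with a bar at each median. The ligands, at a median of 1.10, lie between the homeostatic microglia (1.52) and neuron (0.98) medians and far above the astrocyte median of −4.20.

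With libraries rescaled so that the homeostatic microglia list had the same mean log2 value in each, none of the 10 ligands was higher in IRKO and Cxcl10 and Cx3cl1 were lower. In that scaling 0.483% of all genes tested were higher and 79.7% lower, and the median of all genes stood at −1.42, beside −0.30 for the 10 ligands. Ccl6 (0.04), Cxcl12 (0.05), Ccl12 (0.13), Ccl9 (−0.15), Ccl2 (−0.21), Ccl4 (−0.39), Ccl3 (−0.40) and Cxcl16 (−0.46) did not pass limma's test, with adjusted p from 0.107 to 0.870. The scaled counts of Ccl6 were 414, 333, 432 and 473 in IRKO, against 418 and 377 in the controls, so the groups overlapped.

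Cxcl10 had scaled counts of 21.9, 6.60, 20.6 and 16.7 in IRKO, against 42.0 and 58.3 in the controls. Every IRKO library was below both controls, with a log2 change of −1.65 (limma adjusted p = 0.00446). Cx3cl1 had scaled counts of 3600, 4076, 5132 and 3303 in IRKO, against 5366 and 8981 in the controls, a log2 change of −0.81 (limma adjusted p = 0.00694).

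Scaled instead to the neuron list, 0 of the 10 ligands passed limma's test (adjusted p 0.0529 to 0.906), where 2.46% of all genes tested were higher and 63.9% lower. At an unadjusted p under 0.05, 1 ligand was higher in IRKO (Cxcl12, log2 0.56) and 1 lower (Cxcl10, −1.16), and Cx3cl1 stood at −0.29. The median was 0.20 for the 10 ligands and −0.91 for all genes. Scaled to the endothelial and mural list, 4 of the 10 ligands were higher and none lower, where 8.93% of all genes tested were higher and 48.1% lower. Those 4 were Ccl6 (0.97), Ccl9 (0.78), Ccl12 (1.05) and Cxcl12 (0.98, limma adjusted p = 0.00240). Ccl2, Ccl4, Cxcl16 and Cx3cl1 did not pass in that scaling (limma adjusted p = 0.222, 0.186, 0.119 and 0.639).

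**Figure D3:**
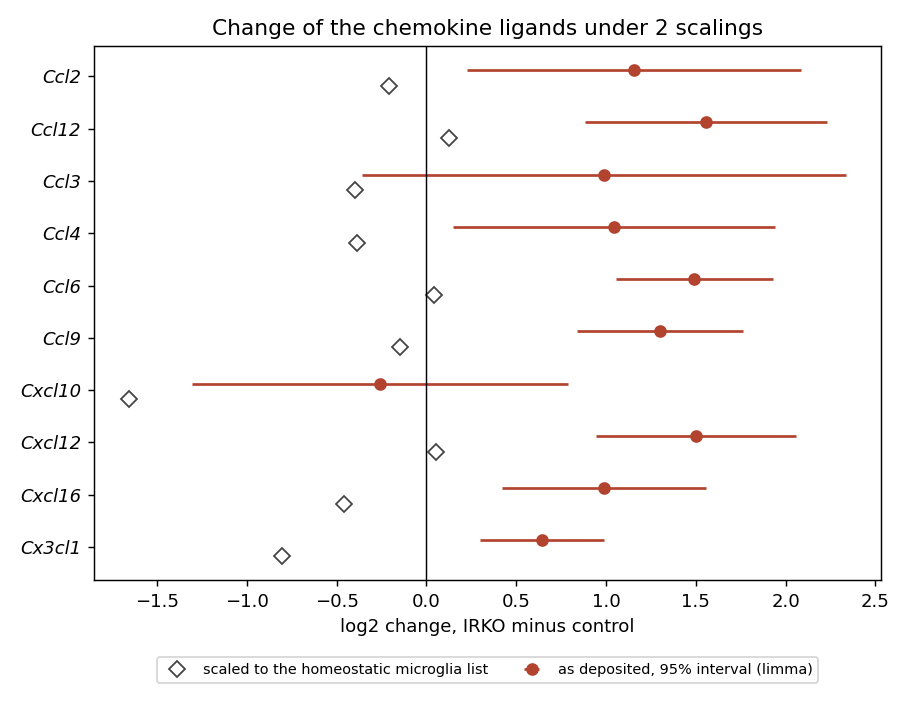
Log2 change, IRKO minus control (horizontal axis), of each chemokine ligand as deposited (red points with 95% intervals from limma) and with libraries scaled to the homeostatic microglia list (open diamonds). As deposited the values run from −0.26 to 1.56, and in the other scaling from −1.65 to 0.13.

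The remaining chemokine ligands moved in both directions. Of 31 listed, 28 were rows of the table and 15 passed the filter, of which 5 rose, 2 fell and 8 did not pass, with a median log2 change of 0.85. Among all genes tested 26.6% rose and 29.0% fell. Cxcl14, a CXC chemokine, had normalized counts of 774, 916, 1104 and 911 in IRKO, against 12450 and 11400 in the controls. It changed by −3.70 ± 0.144 (log2, SE, limma adjusted p = 3.06e-07), a value between the lowest and highest changes of the astrocyte markers (−5.21 and −2.69). Cxcl5, which draws neutrophils through Cxcr2, had 1.98 to 6.80 in IRKO, against 12.4 and 49.4 in the controls (log2 −2.41 ± 0.678, SE, limma adjusted p = 0.0140). It reached the filter value of 10 in the controls only. Its entry to the test thus depended on the group where it was high, and its call is no independent support for a fall.

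The 5 that rose were Ccl21b (log2 1.64), Ccl24 (1.42), Ccl25 (1.25), Ccl27a (1.06) and Ccl27b (0.85). Ccl24, an eotaxin that acts on Ccr3, had 61.4, 71.0, 56.3 and 40.9 normalized counts in IRKO, against 22.5 and 18.4 in the controls. Ccl25 did not pass when control replicate 1 was left out (0.96, limma adjusted p = 0.157), nor without IRKO replicate 3 (1.10, 0.0564) or 4 (1.02, 0.0529), and Ccl27b without control replicate 2 (0.39, 0.190). The Ccl21 and Ccl27 genes are near-identical copies, and Ccl27a overlaps Il11ra1, so their separate values are uncertain. Ccl5, Ccl17, Ccl19, Ccl21c, Ccl22, Ccl28, Cxcl9 and Pf4 did not pass, with log2 changes from −0.46 to 2.18. Ccl21c had 0 reads in control replicate 1 and a normalized count of 22.3 in control replicate 2, and its change was 4.45 without replicate 2 (limma adjusted p = 0.00105).

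Of the ligands below the filter, Ccl1 and Cxcl3 had 0 reads in all 6 libraries, which for each library allows up to 3 reads by counting error alone. Cxcl1 and Cxcl2, the neutrophil-attracting chemokines of acute inflammation, did not exceed normalized counts of 5.83 and 0.97 in any library. Ccl7, a further Ccr2 ligand, had 16.8, 7.89, 8.74 and 4.87 in IRKO, against 1.12 and 6.78 in the controls, and the groups overlapped.

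Among the receptors, 11 of 24 passed the filter, 7 rose and none fell, with a median of 0.96, where 26.6% of all genes tested rose and 29.0% fell. Cx3cr1, the microglial receptor of Cx3cl1, had 18260, 15590, 11280 and 15400 normalized counts in IRKO, against 4365 and 4057 in the controls (log2 1.82 ± 0.186, SE, limma adjusted p = 5.35e-05). Its ligand rose by 0.65 in the same libraries. Ccr1, the receptor of Ccl3, Ccl6 and Ccl9, had 28.7, 27.6, 23.3 and 28.3 in IRKO, against 6.75 and 6.78 in the controls (1.84 ± 0.342, SE, adjusted p = 0.00166). For both receptors every IRKO library was above both controls. Ccr1 reached the filter value of 10 in IRKO libraries only, as did Ccr6. Both are among the 7 that rose, and their entry to the test depended on the group where they were high.

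Receptors of other ligands gave low or overlapping values. Ccr2, the receptor of Ccl2 and Ccl12, had 7.93, 11.8, 9.72 and 16.6 normalized counts in IRKO, against 13.5 and 9.68 in the controls (log2 −0.04, limma adjusted p = 0.949). Cxcr4, the receptor of Cxcl12, had 25.8, 13.8, 19.4 and 78.9 in IRKO, against 66.4 and 52.3 in the controls. IRKO replicate 4 was above both controls and the other 3 below, and the change of −1.08 did not pass (limma adjusted p = 0.143), whereas without IRKO replicate 4 it was −1.58 (limma adjusted p = 0.00808). Ackr3, the atypical receptor of Cxcl12, stood at −0.03 (limma adjusted p = 0.925). Cxcr6, the receptor of Cxcl16, had reads only in IRKO replicate 4, at a normalized count of 2.92. Cxcr3, the receptor of Cxcl10, had 1.95 to 4.95 in IRKO and 1.12 and 2.90 in the controls, below the filter.

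Cxcr2 (log2 1.46), Ackr1 (0.96) and Ccrl2 (0.79) rose as well, although Ccrl2 lost its call with any library left out and with edgeR (adjusted p = 0.0519), and Ackr2 (0.70) did not pass. Ackr1 overlaps the span of Cadm3, whose reads may be counted with it. The spans of Cx3cr1 and Ccr6 overlap those of Gm33858 and Gm33799. Ccr6 had 370, 421, 6.80 and 601 in IRKO, against 6.75 and 1.94 in the controls, so that IRKO replicate 3 stood at the level of control replicate 1. Ccr6 passed the filter through IRKO replicates 1, 2 and 4 only. Its log2 change of 5.11 ± 1.51 (SE, limma adjusted p = 0.0173) was 4.41 without control replicate 2 (limma adjusted p = 0.0973) and 6.58 without IRKO replicate 3. Ccl20, the ligand of Ccr6, had a single read in the 6 libraries, in IRKO replicate 2. Ccr1l1, Ccr3, Ccr4, Ccr7, Ccr9, Ccr10, Cxcr1, Xcr1 and Ackr4 were below the filter, and Ccr8 and Cxcr5 had 0 reads in all libraries.

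**Figure D4:**
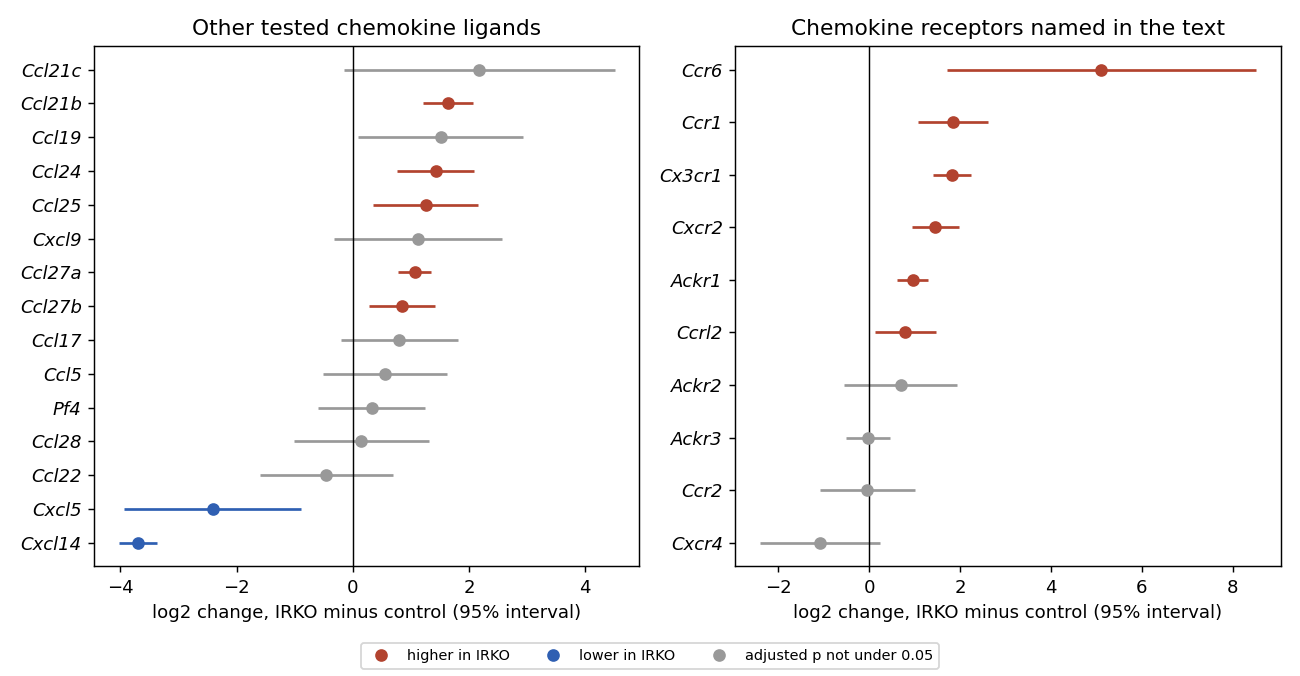
Log2 change, IRKO minus control (horizontal axes, points with 95% intervals from limma), of the 15 other tested chemokine ligands (left) and 10 tested receptors (right), coloured by whether the adjusted p was under 0.05. Cxcl14 at −3.70 and Cxcl5 at −2.41 are the ligands that fell, and no receptor fell. Cxcl5 passed the filter through the controls only.

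Genes that share inducers with these ligands were mixed, where 26.6% of all genes tested rose and 29.0% fell. Of 28 inflammatory response genes that are mostly targets or regulators of NF-kB, 22 were tested, of which 8 rose, 2 fell and 12 did not pass, with a median of 0.42. Cd14, a co-receptor for lipopolysaccharide, changed by 2.03 ± 0.176 and Ptgs2, a prostaglandin synthase, by 1.33 ± 0.263. Traf1, a signalling adaptor, changed by −2.42 ± 0.390 and Csf1, a growth factor of microglia, by −1.09 ± 0.178 (log2, SE, limma adjusted p at most 0.00237 for these 4). Of 23 interferon response genes tested, to which Cxcl10 is related by induction, 5 rose, 2 fell and 16 did not pass, with a median of 0.29. Ifi27l2a (1.53), Xaf1 (1.23) and Bst2 (1.01) rose and Ifit3 fell (−1.41), while Cxcl10 stood at −0.26. Scaled to the homeostatic microglia list, 1 of the inflammatory response genes was higher and 12 were lower. Of the interferon response genes 0 were higher and 16 lower in that scaling, where 0.483% of all genes tested were higher and 79.7% lower.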

How the data were processed

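The submitters' processing notes name Bowtie2 and the build GRCm38.p6. The sources used here do not give the counter, annotation, strandedness or normalization tool. Per the file headers and the values, the deposited signal of a gene is its read count over a size factor, 1 per library: 100% of values were whole multiples of each library's smallest value within 0.05 reads. Recovered reads are used for depth and count tests, and in IRKO replicate 1 the step of 0.991 is too near 1 for a formal test.

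The 14698 of 18887 genes that reached a value of 10 in 2 or more libraries were tested. Values were transformed as log2(value + 1) and fitted to all 6 libraries with limma 3.58.1 in R 4.3.3, with a variance trend and 2-sided p-values adjusted by Benjamini-Hochberg over all genes tested (threshold 0.05). Alternatives were other pseudocounts, filters, scalings and variance settings, a replicate block, leaving out each library, and edgeR 4.0.16 and DESeq2 1.42.0 on recovered reads. Scaling to the neuron and endothelial lists, and edgeR without IRKO replicate 1, were added after seeing the data. Coordinates come from a RefSeq gene table of GRCm38.p6, which matched 18542 symbols.

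The members and all lists were chosen with earlier results of these data known. Named genes were all members, Insr, the tested ligands, the receptors, and up to 4 genes per pathway list with the smallest p. Adam17 and Rhbdf2 are given beside Rhbdf1 outside this rule and were not among the 48 genes checked for libraries that stood apart. A gene that this rule picks is not reported here, though the counts and medians of its list include it. In simulated libraries of the IRKO and control design, 200 of 14698 genes were changed in each of 3 runs. The fit recovered 13.4% of genes at a true 1.5-fold change, 53.7% at 2-fold and 86.9% at 4-fold, with 4.66% of calls false. In the data 55.6% of genes tested were called, so these rates describe the simulated setting and cannot be carried over to this comparison. Library pairs within a group differed by a chi-square of 14.9 to 32.7 per degree of freedom, so none was counted as a duplicate.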

Additional observations from a re-analysis of the deposited data

Results flagged for a closer look

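Among the 48 genes named from the tested comparison, 4 had an IRKO library whose gap to the next was more than 0.829 of the range of the 4 IRKO libraries, a gap that chance gives in about 1 in 20 groups. IRKO replicate 3 stood at 41.8 normalized counts of Ccl2, above the other 3. IRKO replicate 4 stood at 11.7 normalized counts of Ccl22, above the others, and IRKO replicate 1 at 90.1 of Ackr3 and at 10.9 of Traf1. The gaps of Ccl22 and Traf1 are of few reads. Ccl22 had 6, 6, 7 and 12 reads in IRKO replicates 1 to 4, and Traf1 had 11, 8, 8 and 8. At about 1 in 20, some of the 48 genes would be flagged by chance.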

How the results depend on the processing

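The number of the 10 ligands that rose was 6 to 8 under every alternative run except 3 scalings to cell type lists. The number of all genes called higher moved as well. It was 3911 in the main fit, 4527 with quantile normalization and 3244 with the replicate block. With an IRKO library left out it was 3435 to 3663. Scaled to the homeostatic microglia list 2 were called, both lower, scaled to the neuron list 0, and scaled to the endothelial and mural list 4, all higher. In the microglia scaling 3 of the other ligands were called, all lower, and of the receptors 1 was higher (Ccr6) and 3 lower. There 0.483% of all genes tested were higher and 79.7% lower. Cx3cr1 (0.37) and Ccr1 (0.51) did not pass in the microglia scaling (limma adjusted p = 0.160 and 0.330). In the neuron scaling 1 of the other ligands was higher and 2 were lower, where 2.46% of all genes tested were higher and 63.9% lower. Leaving out each library gave 6 or 7 ligands that rose, and 5 to 7 other ligands and 5 to 7 receptors called. Ccl6, Ccl9, Ccl12 and Cxcl12 kept their calls with each library left out and with edgeR and DESeq2, whereas Ccl2 lost its call with DESeq2 (adjusted p = 0.0610). With quantile normalization Ccl2 and Ccl4 lost their calls (limma adjusted p = 0.0580 and 0.0783). The replicate numbers are shared by 2 pairs only, whose deviations correlated at −0.08 and 0.08. The deviations of 2 controls from their mean mirror each other, so these values cannot tell whether libraries of the same number share anything more. With the replicate numbers as a block 7 ligands rose and 6935 genes were called, Ccl28 turned to −0.0355 and Ackr3 to 0.0777.

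Scaling to the microglia list turned the sign of Ccl2 (−0.21), Ccl3 (−0.40), Ccl4 (−0.39), Ccl9 (−0.15), Cxcl16 (−0.46), Cx3cl1 (−0.81), Ccl5 (−0.81), Ccl17 (−0.51), Ccl25 (−0.17), Ccl27a (−0.39), Ccl27b (−0.60), Ccl28 (−1.16), Cxcl9 (−0.16), Pf4 (−1.05), Ackr1 (−0.49), Ackr2 (−0.66), Ccrl2 (−0.60), Adam10 (−0.50), Ptgs2 (−0.0817), Xaf1 (−0.21) and Bst2 (−0.44), and scaling to the neuron list those of Cx3cl1 (−0.29), Ccl5 (−0.33), Ccl17 (−0.0426), Ccl27b (−0.0889), Ccl28 (−0.70), Pf4 (−0.57), Ackr2 (−0.18) and Ccrl2 (−0.11). The sign of Adam17 also turned in the microglia (−0.61) and neuron (−0.0982) scalings. Scaling to the endothelial and mural list turned Ccl28 (−0.32) and Pf4 (−0.16). Ccr2 stood at 0.0013 with DESeq2, at 0.0082 with edgeR and at 0.17 with edgeR and no IRKO replicate 1. With libraries left out in turn, signs turned within the ranges −0.19 to 2.17 for Ccl3, −0.46 to 0.0814 for Cxcl10, −0.12 to 1.23 for Ccl5, −0.0917 to 4.45 for Ccl21c, −0.40 to 0.69 for Ccl28, −0.25 to 0.89 for Pf4, −0.26 to 0.18 for Ccr2, −0.0634 to 1.46 for Ackr2 and −0.20 to 0.15 for Ackr3. The cause was not tested. Ccl2, Ccl3 and Cxcl10 rest on 8 to 61 reads per library, which limits what could be detected.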

Other observations

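Genes that shed, bind or trim chemokines were also read in these libraries. Of 19 listed, all were tested: 6 rose, 5 fell and 8 did not pass, with a median log2 change of −0.02. Among all genes tested 26.6% rose and 29.0% fell. Adam10, a metalloprotease that sheds Cx3cl1 and Cxcl16, had 1327, 1379, 1164 and 1384 normalized counts in IRKO, against 669 and 683 in the controls (log2 0.95 ± 0.114, SE, limma adjusted p = 0.000136). Rhbdf1, a partner of the sheddase Adam17, fell (−2.02 ± 0.237), as did the heparan sulphate carriers Sdc4 (−3.71 ± 0.206) and Sdc2 (−1.42 ± 0.193). Adam17 itself rose (0.84 ± 0.132, limma adjusted p = 0.000672), and so did Rhbdf2 (1.50 ± 0.225, limma adjusted p = 0.0005). Sdc4 had 910 to 1264 in IRKO, against 17360 and 10560 in the controls, a change within the range of the astrocyte markers. Scaled to the homeostatic microglia list, Adam10 stood at −0.50 (limma adjusted p = 0.0363). In that scaling Adam17 stood at −0.61 (limma adjusted p = 0.0138) and Rhbdf2 at 0.08 (limma adjusted p = 0.820).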
